A study of Mus musculus with 2 samples.

Results

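A set of 40 cell cycle and proliferation genes was examined in nuclei of mouse spinal cord taken 7 days after contusion. The genes were given by symbol, and all 40 were found among the 32285 genes of the files. Their transcripts were counted as UMIs, unique tags that each stand for 1 captured molecule. A nucleus met the rule for cycling when at least 1 UMI of 3 or more of the 40 genes was seen in it. The rule was met by 2803 of 15549 kept nuclei in the AEVs library and by 2573 of 14023 in the PBS library.

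The study compared 2 libraries, each a pool of nuclei from the injured cords of 3 C57BL/6 wild-type mice aged 6 to 8 weeks. All mice, PBS mice included, had a contusion at spinal level T10 from a rod of 5 g and 1 mm diameter that was dropped from 6 cm, and all were given antibiotics. AEVs mice had a tail-vein injection every day for 5 days of 100 µg of vesicle protein in 100 µL of PBS, and PBS mice had 100 µL of PBS alone. All were killed on day 7. No uninjured cord was analysed here, so every value describes injured tissue. With 1 library per group no test between treatments was possible. Intervals are exact, at 95%, and are for counting error only. How far mice or pools differ from each other is not in them. Intervals on UMIs treat each UMI as separate, also where several come from 1 nucleus, so spread between nuclei is not in those either. Of the barcodes, 177 were in both libraries, and counts without them are given at the end.

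Dividing cells copy their DNA in S phase, with the MCM helicase, DNA polymerases and enzymes of nucleotide supply, and separate the copies in mitosis, with condensins, kinetochores, spindle motors and a checkpoint kinase network. The cyclin-dependent kinases drive both steps, and E2F, B-Myb and FoxM1 are the transcription factors best known for switching the genes on. In the adult cord, oligodendrocyte precursors are the main dividing cells of the neural lineage, and injury is known to bring microglia, infiltrating macrophages, fibroblasts and ependymal cells into division too. Neurons of the adult cord do not divide.

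The genes fall into roles, and promoters of 5 of them are printed to show the letters that go with mitosis and with DNA replication. Ncapg2 and Kif15 are the mitosis genes and Pola1 and Hells the replication genes with an entry in RefSeq that had most UMIs in the nuclei that met the rule. Top2a was added after its values were seen. Each window runs from 250 bases before to 50 bases after the start given by RefSeq on build GRCm38.p6, at chr11:99024140-99024439 on the minus strand for Top2a, chr9:122950831-122951130 on the plus strand for Kif15, chr12:116405186-116405485 on the plus strand for Ncapg2, chrX:93632106-93632405 on the minus strand for Pola1 and chr19:38930740-38931039 on the plus strand for Hells. Capitals mark 3 motifs, searched on both strands: the cell cycle homology region (TTTGAA or TTCGAA), the E2F site (TTTGGCGC, TTTCCCGC, TTTGCCGC or TTTCGCGC) and the CCAAT box.
Top2a: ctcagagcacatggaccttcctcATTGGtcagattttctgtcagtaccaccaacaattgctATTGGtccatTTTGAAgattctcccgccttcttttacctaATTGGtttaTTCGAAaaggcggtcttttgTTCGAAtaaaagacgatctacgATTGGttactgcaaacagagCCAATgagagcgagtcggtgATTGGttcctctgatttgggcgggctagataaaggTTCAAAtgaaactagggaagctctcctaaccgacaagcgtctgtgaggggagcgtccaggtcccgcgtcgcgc
Kif15: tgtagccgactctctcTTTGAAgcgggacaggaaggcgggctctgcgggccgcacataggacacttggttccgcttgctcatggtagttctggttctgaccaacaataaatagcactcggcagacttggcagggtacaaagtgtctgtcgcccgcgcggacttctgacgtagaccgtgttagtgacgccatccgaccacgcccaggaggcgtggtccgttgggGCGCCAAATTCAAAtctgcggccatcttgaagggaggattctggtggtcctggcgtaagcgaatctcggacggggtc
Ncapg2: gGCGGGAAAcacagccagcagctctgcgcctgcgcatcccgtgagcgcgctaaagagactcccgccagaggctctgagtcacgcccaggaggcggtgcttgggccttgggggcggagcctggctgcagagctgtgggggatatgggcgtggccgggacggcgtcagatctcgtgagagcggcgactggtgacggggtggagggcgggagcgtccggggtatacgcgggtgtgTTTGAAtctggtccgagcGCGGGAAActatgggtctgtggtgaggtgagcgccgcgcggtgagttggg
Pola1: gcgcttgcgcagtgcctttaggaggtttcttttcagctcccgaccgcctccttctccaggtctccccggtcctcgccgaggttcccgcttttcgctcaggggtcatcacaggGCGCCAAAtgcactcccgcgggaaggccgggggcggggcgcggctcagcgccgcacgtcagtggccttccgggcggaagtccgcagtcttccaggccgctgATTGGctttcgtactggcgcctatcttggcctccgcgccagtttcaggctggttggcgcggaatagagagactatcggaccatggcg
Hells: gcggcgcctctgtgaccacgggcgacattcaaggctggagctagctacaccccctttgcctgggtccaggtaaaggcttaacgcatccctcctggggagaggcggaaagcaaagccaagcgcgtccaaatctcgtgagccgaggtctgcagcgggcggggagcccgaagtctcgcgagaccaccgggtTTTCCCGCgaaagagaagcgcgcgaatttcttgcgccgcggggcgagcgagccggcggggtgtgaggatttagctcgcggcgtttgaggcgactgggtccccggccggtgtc

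The Top2a window held 4 homology regions and 6 CCAAT boxes, and in the Kif15 window an E2F site and a homology region stand side by side just before the start. A RefSeq promoter was found for 32 of the 40 genes, with 33 windows in all. Ect2 had 2 of the windows, which overlap and hold the same motif matches, and both were counted. Among 18 genes of mitosis proper, called the strict mitosis genes below (Top2a, Mki67, Cenpf, Cenpe, Bub1, Bub1b, Kif11, Kif15, Kif20b, Kif4, Knl1, Aspm, Tpx2, Ncapg, Ect2, Cdk1, Ccna2 and Ccnb1), 15 of 17 windows held a homology region, 88.2%, against 19.2% of all 32851 windows. A homology region was found in 1 of 9 windows of the DNA replication genes, 11.1%. An E2F site was found in 5 of these 9 windows, 55.6%, and in 3 of the 17 strict mitosis windows, 17.65%, against 2.27% of all. A CCAAT box was found in 82.4% of the strict mitosis windows and in 77.8% of the replication windows, against 37.4% of all. These are matches of letters, and no binding was measured.

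The 40 genes were not alike in where they were found, and the classes where they stood highest differed between the libraries. Classes of nuclei were named by marker genes after clustering without any cell cycle gene, and carry the ending -like. For 10 named classes each library held 100 nuclei or more. Among these, the oligodendrocyte precursor-like class had the highest level of 5 of the 40 genes in AEVs and of 30 in PBS. In AEVs the phagocyte-like class had the highest level of 10 genes, the ependymal-like class of 8 and the Schwann-like class of 6, and in PBS the phagocyte-like class of 5 and the ependymal-like class of 1. With the UMIs of both libraries added up, the precursor-like class was highest for 25. Levels are given as CPM, the usual scaling of a gene's UMIs to a fixed total of all UMIs in the class.

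**Figure D1:**
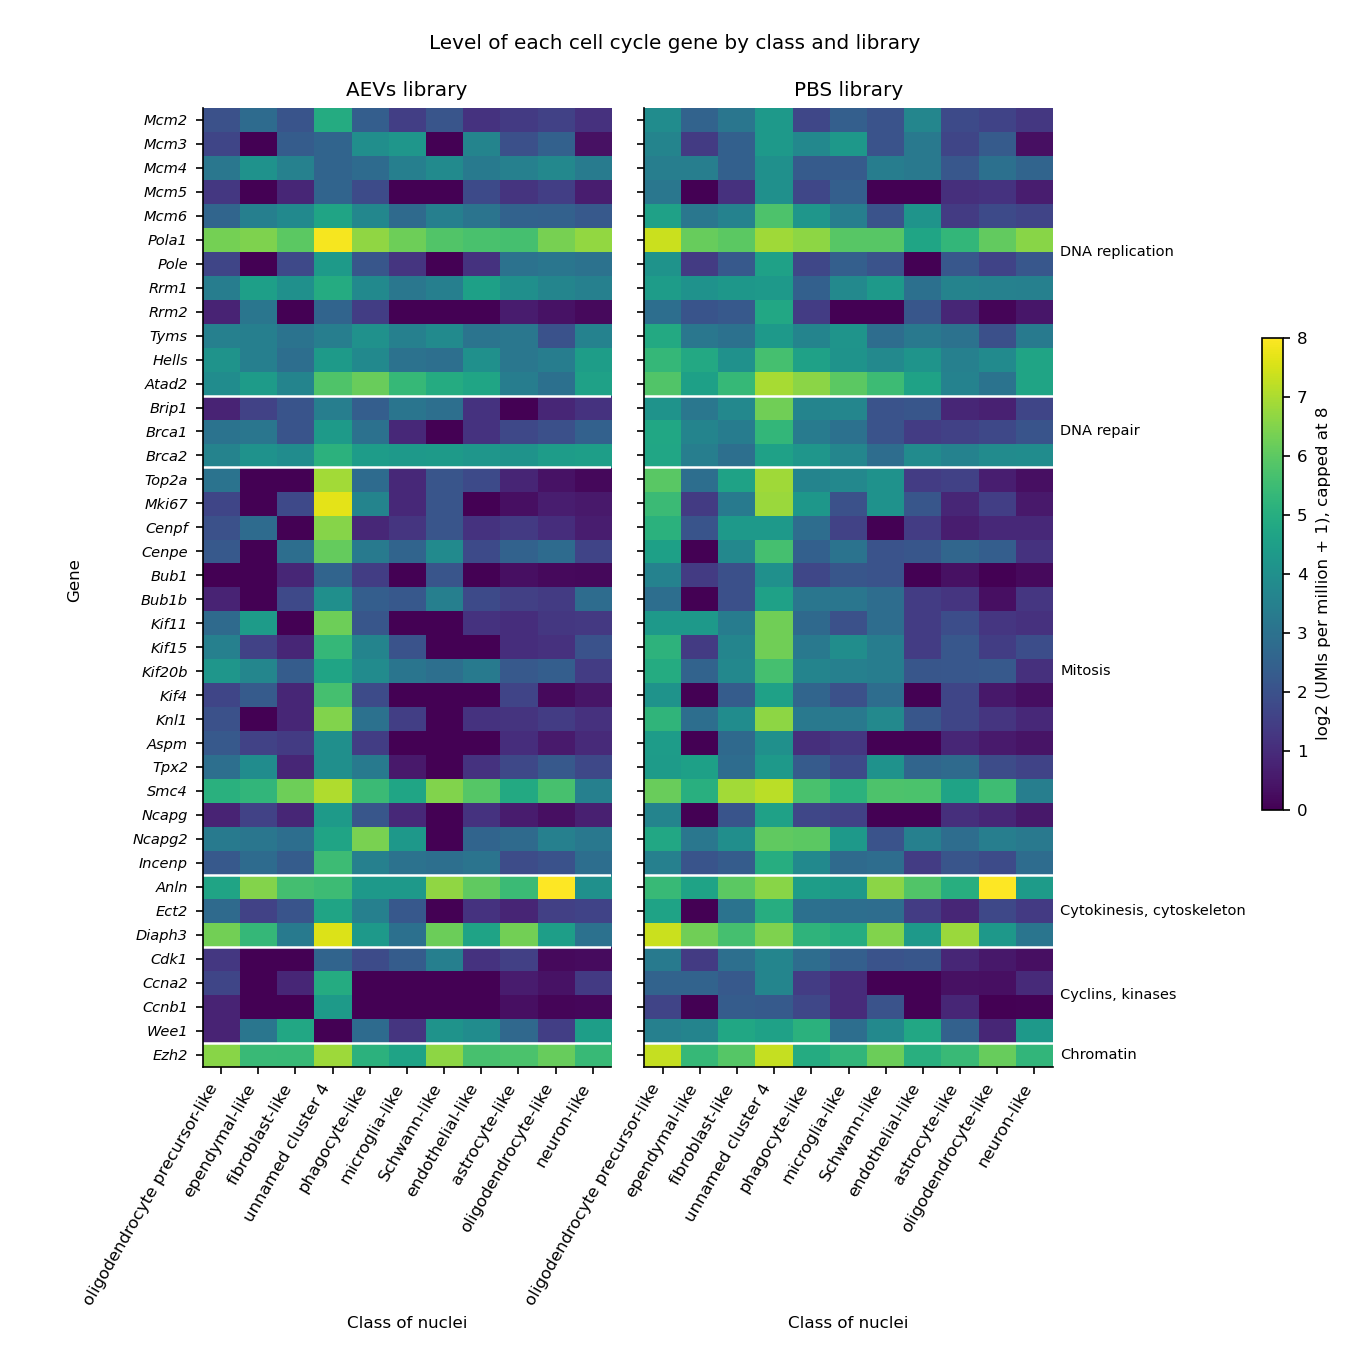
Level of each of the 40 genes (rows, ordered by role) in 11 classes of nuclei (columns) in the AEVs library (left) and the PBS library (right), as log2 of CPM plus 1, with the colour scale capped at 8. Dark stands for low levels. The oligodendrocyte precursor-like column is darker in the AEVs library than in the PBS library over nearly all rows, while Pola1, Ezh2 and Smc4 are seen in every class and Anln stands out in the oligodendrocyte-like class.

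Top2a, the topoisomerase that untangles sister chromatids, lies on chromosome 11 (98992943 to 99024189, minus strand, build mm10, GENCODE M21). Its level in precursor-like nuclei was 62.2-fold that in neuron-like nuclei in AEVs (19.4 to 232, from 10 and 5 UMIs) and 251.4-fold in PBS (135 to 518). Mki67, on chromosome 7 (135689784 to 135716361, minus strand), encodes the Ki-67 protein that coats mitotic chromosomes. The same ratio for Mki67 was 4.66 in AEVs, from 3 UMIs in precursor-like nuclei, with an interval of 0.887 to 15.7 that includes 1, and 92.4 in PBS (56.6 to 157). Bub1, a kinase of the spindle checkpoint, had 0 UMIs in AEVs precursor-like nuclei, and in PBS its ratio was 69.3 (28.2 to 194). Of all Top2a UMIs of both libraries, 4.41% lay in neuron-like nuclei.

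Other members were also plentiful in neurons, which do not divide. Neuron-like nuclei held 62.03% of the UMIs of all genes in the kept nuclei, and a larger share than that for 10 of the 40 genes. They held 82.9% of all UMIs of Wee1, the kinase that holds Cdk1 back, 73.8% of those of Hells, a chromatin remodeller, 72.4% of Bub1b, and 69.8% of Pola1, the catalytic subunit of DNA polymerase alpha. The level of Pola1 in precursor-like nuclei was 0.761 of that in neuron-like nuclei in AEVs (0.623 to 0.921) and 1.74 of it in PBS (1.55 to 1.96), and for Hells the ratio was 0.765 in AEVs (0.477 to 1.17) and 1.60 in PBS (1.25 to 2.03). Anln, whose product anillin organises the contractile ring and is also known from myelin, had 764 CPM in oligodendrocyte-like nuclei of both libraries together, against 99.5 in Schwann-like nuclei, the class with the next highest level.

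For 7 genes the annotation (GENCODE M21, build mm10) places another gene of the files over part of the same stretch, on the same strand for Anln and Brca2 and on the other strand for Pole, Kif4, Ccna2, Ncapg, Wee1 and also Brca2. Whether counting used strand is not given in the sources used here, so reads of these genes and of their neighbours could not be told apart there.

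The rule of 3 detected genes was met most often in deep nuclei. It was met by 37.6% of 4601 neuron-like nuclei in the AEVs library, at a median of 7674 UMIs per nucleus, and by 42.3% of 3469 in the PBS library, at a median of 10334. Among the neuron-like nuclei that met it, Pola1 was detected in 69.2% in AEVs and 73.6% in PBS, and Ezh2, the methyltransferase of Polycomb complexes, in 47.8% in AEVs and 53.3% in PBS. In the oligodendrocyte-like class the rule rested on Anln, detected in 91.9% of the nuclei that met it in AEVs and in 92.3% in PBS. When every nucleus was thinned to 1000 UMIs, the neuron-like share was 0.426% in AEVs, 19 of 4465 nuclei, and 0.206% in PBS, 7 of 3398.

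The neuron-like share serves as the background of the rule, and a narrower count of nuclei with 2 or more of the 18 strict mitosis genes was set beside it. That count took 2.41% of neuron-like nuclei in AEVs and 1.96% in PBS. After thinning it took 0 of 4465 in AEVs, which allows a share of up to 0.0672%, and 0 of 3398 in PBS, which allows up to 0.0883%.

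**Figure D2:**
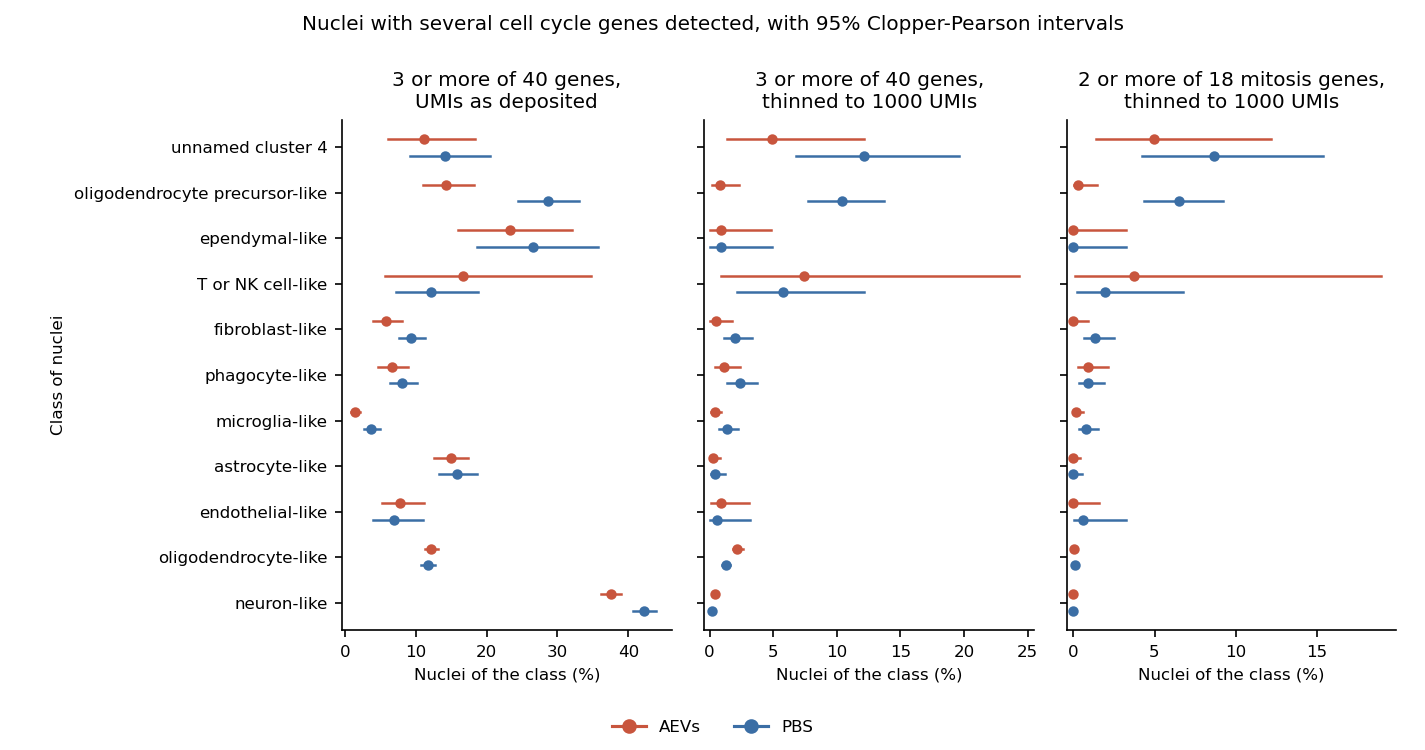
Share of nuclei in each class with 3 or more of the 40 genes as deposited (left), with 3 or more after thinning to 1000 UMIs (middle), and with 2 or more of the 18 strict mitosis genes after thinning (right), for AEVs (red) and PBS (blue), with exact 95% Clopper-Pearson intervals for counting error. Neuron-like nuclei stand highest in the left panel and at 0 in the right panel, where precursor-like nuclei are at 0.265% in AEVs and 6.48% in PBS.

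Over all nuclei the rule gave 18.03% in AEVs (17.4% to 18.6%) and 18.35% in PBS (17.7% to 19.0%), a ratio of 0.982 with an interval of 0.931 to 1.04 that includes 1. Most of the nuclei behind these shares were neuron-like, 1731 of the 2803 that met the rule in AEVs and 1467 of the 2573 in PBS. With neuron-like nuclei left out, a step chosen after the data were seen, 9.79% of 10948 nuclei met it in AEVs and 10.5% of 10554 in PBS. The libraries stood further apart in nuclei with many of the genes. Of these non-neuronal nuclei, 54 in AEVs and 147 in PBS had 2 or more strict mitosis genes, 0.493% in AEVs and 1.39% in PBS, a ratio of 0.354 (0.254 to 0.487). At least 10 of the 40 genes were seen in 14 AEVs and 80 PBS nuclei.

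Without the neuron-like nuclei, 34 of the 40 genes were lower in AEVs than in PBS, where 43.7% of all 18523 genes with at least 20 UMIs were. By 2-fold or more 13 of the 40 were lower, where 3.35% of all those genes were. TMM scaling, an alternative from edgeR that lets the bulk of genes set the level, left these 34 lower. The median log2 ratio of AEVs over PBS was -0.72 for the 40 genes and 0.06 for all measured genes. All 18 strict mitosis genes were lower, 12 of them by 2-fold or more, with a median of -1.18, while the 12 DNA replication genes had a median of -0.26 with 8 lower and 4 higher. A class level alone cannot tell fewer nuclei with a gene from fewer UMIs in each, so counts of nuclei are given beside it.

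The nuclei with 2 or more strict mitosis genes were then counted by class. In AEVs the precursor-like class held 3 of 165 such nuclei, 1.82% (0.377% to 5.22%), and the fibroblast-like class 3. An unnamed class with macrophage and dendritic cell genes held 9, the phagocyte-like class 7 and the microglia-like class 3. In PBS the precursor-like class held 48 of 215, 22.3% (16.9% to 28.5%), the fibroblast-like class 18, the unnamed class 15, the phagocyte-like class 14 and the microglia-like class 12. Neuron-like nuclei were 111 of the 165 in AEVs and 68 of the 215 in PBS. After thinning, 0 neuron-like nuclei were left in this count.

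Oligodendrocyte precursor-like nuclei with several cell cycle genes were fewer in AEVs than in PBS, and every member had fewer UMIs in the AEVs class. The class was cluster 21, with all 10 precursor markers raised and Vcan, Sox6, Pdgfra and Tnr among its leading genes. The rule was met by 55 of 384 nuclei in AEVs, 14.3% (11.0% to 18.2%), at a median of 3404 UMIs, and by 126 of 440 in PBS, 28.6% (24.5% to 33.1%), at a median of 3993. The ratio of the shares was 0.5002 (0.358 to 0.692). After thinning, 3 of 377 nuclei met it in AEVs and 45 of 432 in PBS, a ratio of 0.0764 (0.0152 to 0.238).

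The gap lay in the nuclei with the most genes. Detection of 10 or more of the 40 genes was seen in 1 AEVs nucleus and in 37 PBS nuclei, 0.260% in AEVs and 8.41% in PBS, a ratio of 0.0310 (0.000764 to 0.184). Strict mitosis genes, at least 2 of them, were seen in 3 AEVs nuclei and in 48 PBS nuclei, 0.781% in AEVs and 10.9% in PBS, a ratio of 0.0716 (0.0143 to 0.222). The share with none of the 40 genes was close in both, 26.8% in AEVs and 23.0% in PBS, and the interval of that ratio, 0.879 to 1.55, includes 1.

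**Figure D3:**
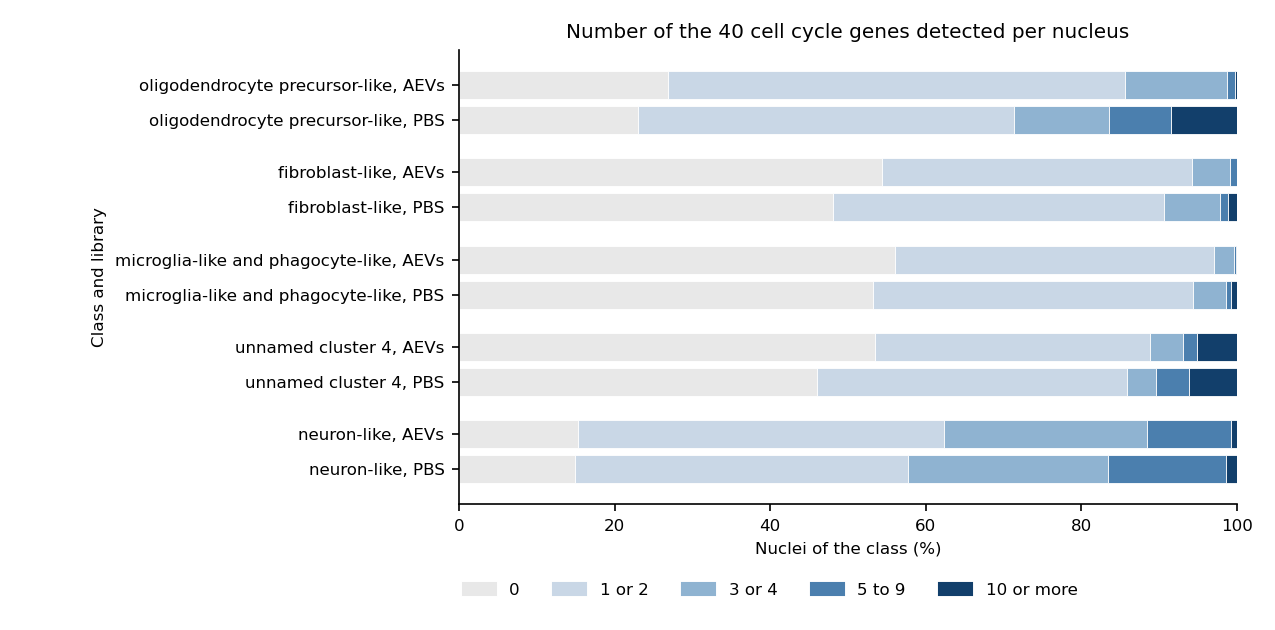
Share of nuclei by the number of the 40 genes detected (0, 1 or 2, 3 or 4, 5 to 9, and 10 or more, light to dark) in 5 classes, with the AEVs bar above the PBS bar. The darkest block, 10 or more genes, is 0.260% of precursor-like nuclei in AEVs and 8.41% in PBS, and in the unnamed cluster 4 it is 5.17% in AEVs and 6.13% in PBS.

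Summed over the precursor-like class, the 40 genes had 670 UMIs in AEVs and 2509 in PBS, or 492 CPM in AEVs and 1345 CPM in PBS, a ratio of 0.366 (0.335 to 0.398). At least 20 UMIs over both libraries were counted for 34 of the 40 genes. Of 11107 measured genes of the class 46.6% were lower in AEVs, and 3.75% by 2-fold or more. All 34 members were lower, and 30 of them by 2-fold or more. Their median log2 ratio was -1.91, with Bub1 entered at its bound, against 0.04 for all measured genes. The other 6 genes, Mcm5, Rrm2, Bub1b, Cdk1, Ccna2 and Ccnb1, had too few UMIs for this count, and each had fewer in AEVs than in PBS. A gene was measured by its UMIs over both libraries, and for the 34 genes most were from PBS. Over the 20 genes with at least 50 UMIs all 20 were lower, with a median of -1.52.

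Of the 18 strict mitosis genes 14 were measured, 13 of them lower by 2-fold or more, with a median log2 ratio of -2.545. A second list of 17 mitosis genes adds Smc4, Ncapg2 and Incenp and leaves out Ect2, Cdk1, Ccna2 and Ccnb1. In it 15 of 16 measured were lower by 2-fold or more, with a median of -2.38. Top2a had 10 UMIs in 2 AEVs nuclei, against 114 UMIs in 33 PBS nuclei, or 7.34 CPM in AEVs and 61.1 CPM in PBS, 8.33-fold lower (log2 ratio -3.06, interval -4.16 to -2.13). Mki67 had 3 UMIs in 3 AEVs nuclei and 80 UMIs in 30 PBS nuclei, a ratio of 0.0513 (0.0104 to 0.156). These are the markers most used for dividing cells, and they were found together in 1 of the 2 nuclei with Top2a in AEVs and in 19 of the 33 in PBS.

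Kinetochore genes were among those lower in AEVs. Cenpf had 4 UMIs in AEVs and 63 in PBS, a log2 ratio of -3.52 (-5.44 to -2.10). Cenpe, the kinetochore motor, had 5 in AEVs and 42 in PBS, -2.62 (-4.31 to -1.28). Knl1, the scaffold on which checkpoint proteins gather, had 4 UMIs in 1 AEVs nucleus and 69 UMIs in 25 PBS nuclei, -3.66 (-5.57 to -2.23). Of the checkpoint kinases that dock on it, Bub1 had 0 UMIs in AEVs and 20 in PBS, which against a floor of 3 counts in the AEVs library makes it at least 4.87-fold lower, and Bub1b had 1 in AEVs and 12 in PBS, a ratio of 0.114 (0.00267 to 0.771).

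The spindle motors and their partners were lower too, by less for some. Kif11, which pushes spindle poles apart, had 8 UMIs in 2 AEVs nuclei and 36 UMIs in 18 PBS nuclei, a log2 ratio of -1.72 (-3.03 to -0.59). Kif15, a motor that can stand in for Kif11, had 14 in AEVs and 65 in PBS, -1.76 (-2.71 to -0.91). The chromokinesin Kif4 had 3 in AEVs and 30 in PBS, a ratio of 0.137 (0.0267 to 0.440). Kif20b, a motor of late mitosis, differed least among them, with 24 UMIs in AEVs and 55 in PBS and a log2 ratio of -0.74 (-1.50 to -0.03). Aspm, a spindle pole protein, had 5 UMIs in AEVs and 38 in PBS, and Tpx2, an activator of Aurora A, had 9 in AEVs and 37 in PBS.

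Condensins and the chromosomal passenger complex followed. Smc4, the core ATPase of both condensins, had 45 UMIs in AEVs and 134 in PBS, -1.12 (-1.64 to -0.62), Ncapg of condensin I had 1 in AEVs and 21 in PBS, a ratio of 0.0652 (0.00158 to 0.405), and Ncapg2 of condensin II had 12 in AEVs and 50 in PBS, -1.61 (-2.65 to -0.68). Smc4 was spread over 38 AEVs nuclei and 79 PBS nuclei, more than the other condensin genes. Incenp, the scaffold of the passenger complex, had 5 UMIs in AEVs and 19 in PBS, -1.47 (-3.25 to -0.003).

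Of the cytokinesis genes, Ect2, which switches on RhoA at the cleavage plane, had 8 UMIs in AEVs and 45 in PBS, -2.04 (-3.34 to -0.94). Anln had 33 in AEVs and 76 in PBS, -0.75 (-1.39 to -0.14). Diaph3, a formin that builds actin filaments, had 106 UMIs in 71 AEVs nuclei and 303 UMIs in 126 PBS nuclei, -1.06 (-1.40 to -0.74). In the AEVs library, where 3 nuclei met the strict count, Anln was detected in 26 nuclei and Diaph3 in 71.

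The DNA replication genes had a median log2 ratio of -1.71, with 9 of 10 measured lower by 2-fold or more. Of the MCM helicase, Mcm2 had 4 UMIs in AEVs and 26 in PBS, Mcm3 had 3 in AEVs and 21 in PBS, Mcm5 had 2 in AEVs and 15 in PBS, and Mcm6 had 7 in AEVs and 43 in PBS, with log2 ratios between -2.45 and -2.17. Mcm4 had 11 UMIs in AEVs and 18 in PBS and a log2 ratio of -0.26 whose interval, -1.49 to 0.90, includes 0. Pole, the leading-strand polymerase, had 3 UMIs in AEVs and 30 in PBS, a ratio of 0.137 (0.0267 to 0.440).

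Pola1 had 108 UMIs in 88 AEVs nuclei and 305 UMIs in 140 PBS nuclei, -1.04 (-1.38 to -0.72). Of the enzymes that supply nucleotides, Rrm1 had 13 UMIs in AEVs and 38 in PBS, Rrm2 1 in AEVs and 12 in PBS, and Tyms, thymidylate synthase, 14 in AEVs and 52 in PBS. Hells had 22 UMIs in AEVs and 73 in PBS, -1.28 (-2.04 to -0.57). Atad2, a chromatin reader that E2F is known to switch on, had 19 UMIs in 11 AEVs nuclei and 103 UMIs in 60 PBS nuclei, -1.99 (-2.77 to -1.27).

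All 3 repair genes were lower by 2-fold or more. Brip1, a helicase that works with Brca1, had 1 UMI in AEVs and 30 in PBS, a ratio of 0.0456 (0.00112 to 0.275). Brca1 had 10 in AEVs and 49 in PBS, -1.84 (-2.99 to -0.84), and Brca2 had 15 in AEVs and 48 in PBS, -1.23 (-2.17 to -0.36).

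The cyclins and kinases were sparse. Cdk1, the kinase of mitotic entry, had 2 UMIs in AEVs and 16 in PBS, a ratio of 0.171 (0.0191 to 0.728). Wee1 had 1 in AEVs and 19 in PBS, a ratio of 0.0721 (0.00173 to 0.453). Ccna2 had 3 UMIs in AEVs and 9 in PBS and Ccnb1 1 in AEVs and 4 in PBS, and both intervals include 1. Ezh2, the most widely detected of the 40 genes in this class, had 130 UMIs in 99 AEVs nuclei and 289 UMIs in 151 PBS nuclei, -0.70 (-1.01 to -0.40).

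**Figure D4:**
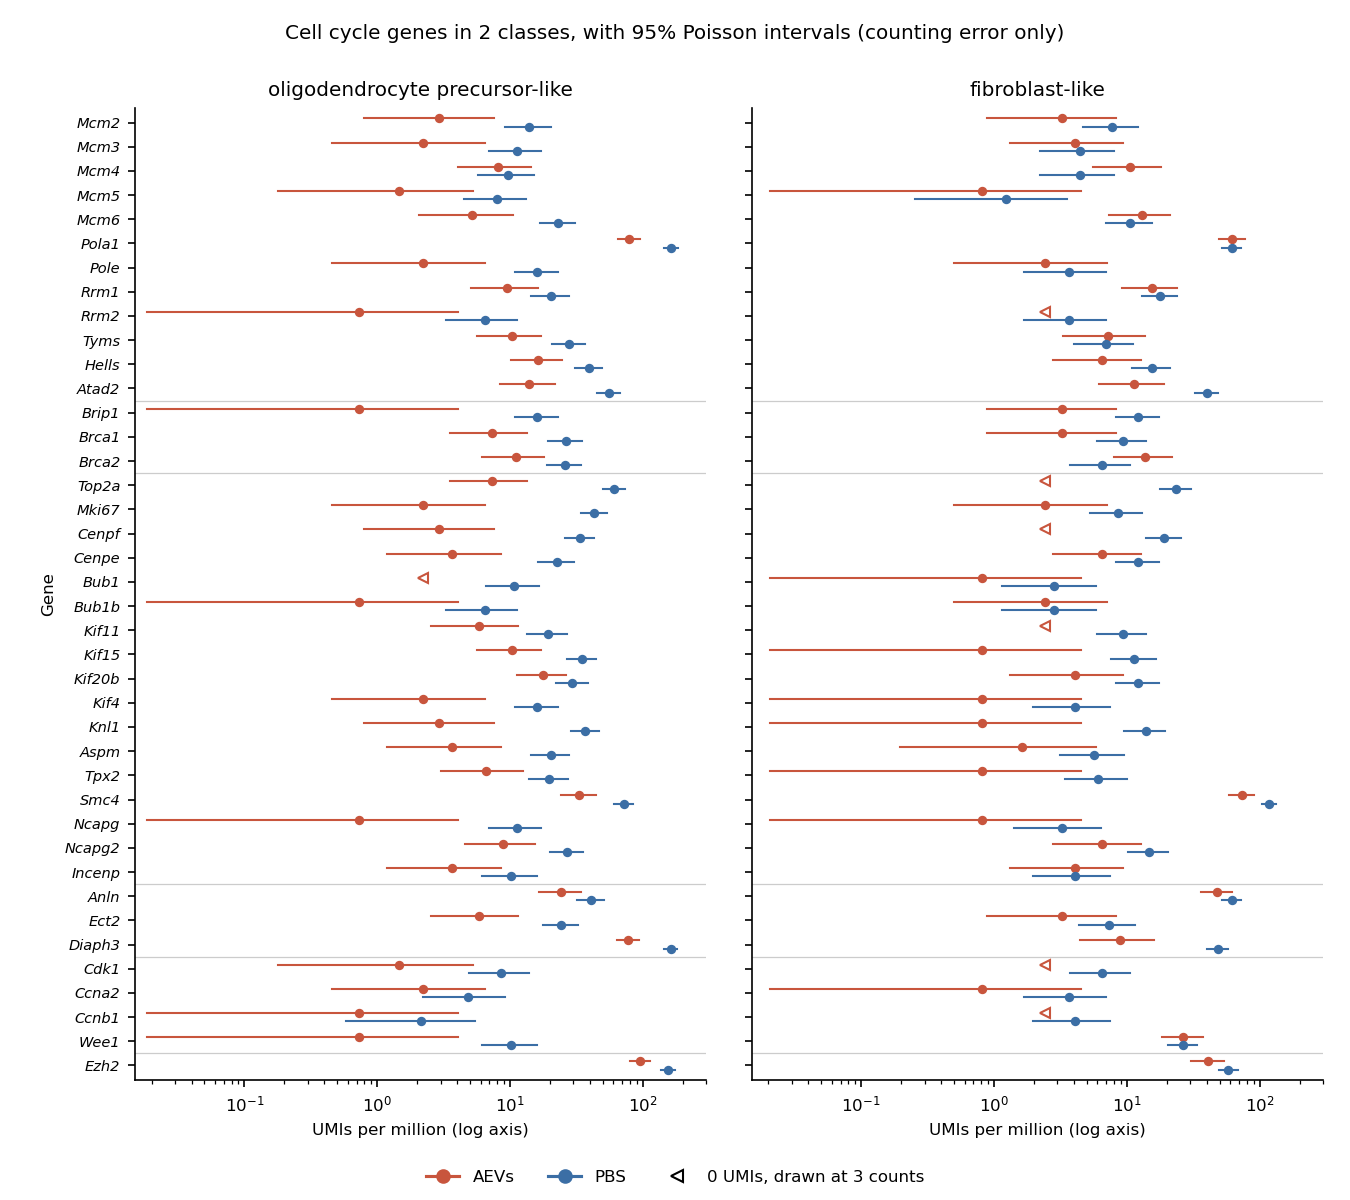
Level of each of the 40 genes in precursor-like (left) and fibroblast-like nuclei (right) in CPM on a log axis, for AEVs (red) and PBS (blue), with exact 95% Poisson intervals for counting error. An open triangle marks a gene with 0 UMIs, drawn at the level of 3 counts. In the left panel every gene lies lower in AEVs, and in the right panel Pola1 and Wee1 lie level while Top2a and Cenpf are at 0 in AEVs.

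Among the precursor-like nuclei that met the rule, strict mitosis genes made up 41.0% of the summed UMIs of strict mitosis, replication and repair genes in AEVs and 50.5% in PBS. These were 71 UMIs in 23 of 55 AEVs nuclei and 733 UMIs in 75 of 126 PBS nuclei. The nuclei had been picked by these same genes, so the 2 shares cannot show a difference in phase. Genes outside the 40 were also high in nuclei with mitosis genes. In the 48 PBS nuclei with 2 or more strict mitosis genes, a list of other G2 and M phase genes stood at 7180 CPM, against 942 in the remaining 392 nuclei, 7.62-fold higher (7.10 to 8.18), and other S phase genes at 3194, against 624, 5.12-fold higher. Of single genes, picked after their values were seen, Nusap1, a spindle protein, was 60.4-fold higher (21.4 to 235) and Hmgb2, a chromatin protein of dividing cells, 12.0-fold (7.74 to 18.7). The median depths were close, 4304 UMIs in the 48 nuclei and 3980 in the others.

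The same 48 nuclei also differed in genes of the precursor lineage. Pdgfra, the growth factor receptor of precursors, was 1.37-fold higher in them (1.16 to 1.61), and Gpr17 and Bcas1, which come on as precursors differentiate, were at 0.258 (0.143 to 0.431) and 0.428 (0.361 to 0.504) of the level of the others. Vcan did not stand apart, at 0.985 (0.910 to 1.06).

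Other cell cycle genes, taken from lists and not from the 40, were counted in the precursor-like class. Of all measured genes there 46.6% were lower in AEVs, and 3.75% by 2-fold or more. All 42 measured of 71 other G2 and M phase genes were lower in AEVs, 27 by 2-fold or more, with a median log2 ratio of -1.52. These 42 too were measured by their UMIs over both libraries, most of them from PBS. Lowest were Esco2, a cohesin acetyltransferase, with 1 UMI in AEVs and 35 in PBS, and Cenpa, the centromeric histone, with 1 in AEVs and 26 in PBS. Least lower were Anp32e and Lbr, each with 38 UMIs in AEVs and 56 in PBS and a log2 ratio of -0.11. Of the other S phase genes 30 of 34 measured were lower, 10 by 2-fold or more, with a median of -0.72. Dtl, a ubiquitin ligase adaptor of S phase, had 0 UMIs in AEVs and 42 in PBS, at least 10.2-fold lower against a floor of 3 counts in the AEVs library, and Clspn, a replication checkpoint adaptor, had 1 in AEVs and 26 in PBS. Ubr7 had 32 UMIs in AEVs and 29 in PBS and Fen1, the flap endonuclease, 10 in AEVs and 13 in PBS. Pcna, the sliding clamp, had 30 UMIs in AEVs and 79 in PBS, -0.94.

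Genes of cell cycle entry and exit were less one-sided. Beside them, 46.6% of all measured genes of the class were lower in AEVs and 53.4% higher. Of 7 measured G1 cyclins and kinases 5 were lower in AEVs, with a median of -0.11. Ccnd1, a cyclin of G1, had 203 UMIs in AEVs and 352 in PBS, -0.34 (-0.60 to -0.09), and Cdc25a had 4 in AEVs and 24 in PBS. Of 15 measured E2F, RB and MuvB regulators 12 were lower, with a median of -0.39, from E2f2 with 1 UMIs in AEVs and 21 in PBS to E2f5 with 32 in AEVs and 24 in PBS. Of 9 measured quiescence and p53 genes 5 were higher, with a median of 0.14.

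Cdkn1a, which encodes the CDK inhibitor p21, ran the other way. It had 168 UMIs in the AEVs precursor-like nuclei and 58 in the PBS ones, or 123.3 CPM in AEVs and 31.1 CPM in PBS, a log2 ratio of 1.99 (1.55 to 2.44). Of 5 measured CDK inhibitors, Cdkn1a included, 3 were higher in AEVs and 2 lower, with a median log2 ratio of 0.145. Those other than Cdkn1a stood nearer to 0. The 2 lower ones were Cdkn1b, with 39 UMIs in AEVs and 61 in PBS, -0.19 (-0.81 to 0.41), and Cdkn2c, with 11 in AEVs and 26 in PBS, -0.79 (-1.95 to 0.28). Within PBS the 48 nuclei with strict mitosis genes had more Cdkn1a than the other 392, at 77.9 CPM in the 48 nuclei and 24.9 CPM in the others, a ratio of 3.13 (1.67 to 5.63). Higher Cdkn1a in AEVs was also seen in classes where the 40 genes were not lower, with 3957 UMIs in AEVs and 395 in PBS in oligodendrocyte-like nuclei, 3.29 on the log2 scale, and with 776 UMIs in AEVs and 497 in PBS in neuron-like nuclei, 0.74.

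**Figure D5:**
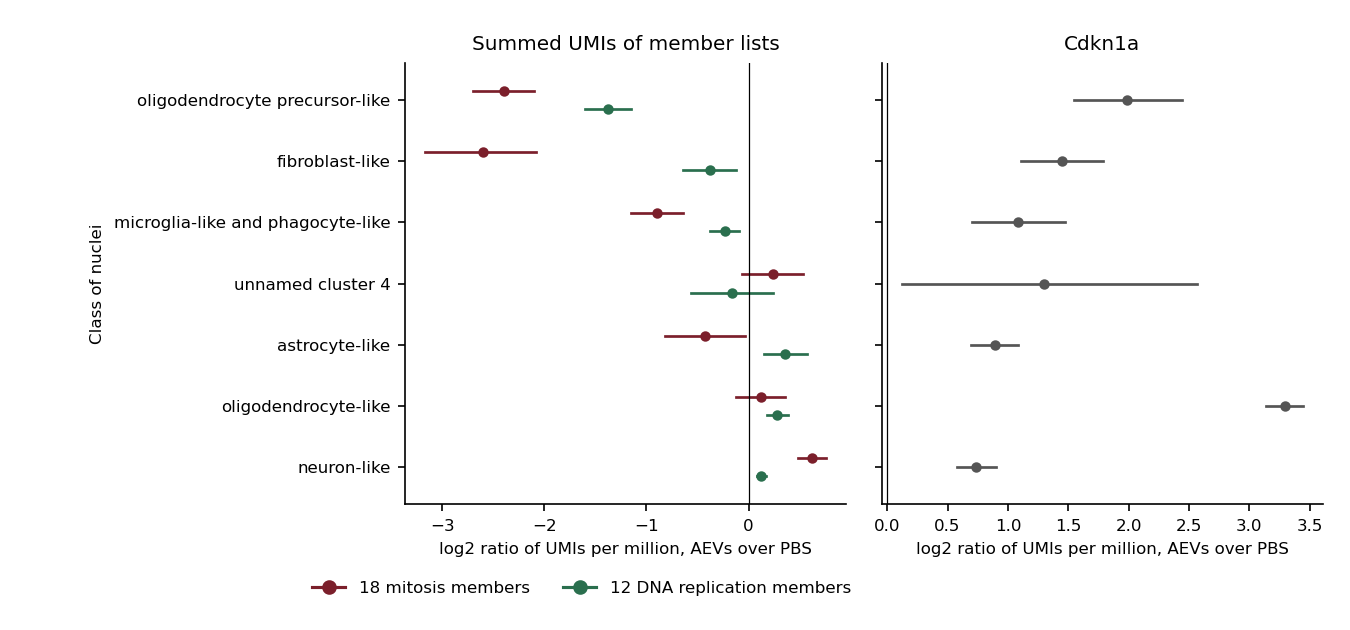
Log2 ratio of CPM, AEVs over PBS, for the summed 18 strict mitosis and 12 DNA replication genes (left) and for Cdkn1a (right) in 7 classes, with exact 95% intervals for counting error. The mitosis sums are at -2.40 in precursor-like and -2.60 in fibroblast-like nuclei, -0.90 in microglia-like and phagocyte-like nuclei, and 0.24 in cluster 4 and 0.62 in neuron-like nuclei, while Cdkn1a lies above 0 in all 7.

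The markers of the precursor-like class were level between the libraries, with a sum of 24030 CPM in AEVs and 24238 in PBS and 5 of 10 markers on either side. Markers of other classes differed within it. Those of differentiating oligodendrocytes, 10 of 10 measured, were lower in AEVs, with 3604 CPM in AEVs and 5685 in PBS, and none was at 0 in either library. Neuron markers were higher, with 2914 CPM in AEVs and 2129 in PBS, and 10 of 11 measured higher. Astrocyte markers were higher for 9 of 9 measured, with 1781 CPM in AEVs and 1404 in PBS. Oligodendrocyte markers were lower for 10 of 12, with 2220 CPM in AEVs and 3587 in PBS, and fibroblast markers for 3 of 3 measured, with 19.1 CPM in AEVs and 61.7 in PBS and 3 of 10 at 0 in AEVs and 1 in PBS. Their part in the result was not tested. At a finer clustering the precursor-like class and a differentiating class parted: strict mitosis genes were then seen in 2 of 356 AEVs and 44 of 374 PBS precursor-like nuclei, and in 1 of 32 AEVs and 4 of 83 PBS differentiating nuclei.

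Fibroblasts, which build the fibrous part of the scar, gave a class with fewer mitosis genes in AEVs as well. This fibroblast-like class, cluster 3 with all 10 fibroblast markers raised, was added after the data were seen. The rule was met by 32 of 550 nuclei in AEVs, 5.82%, at a median of 1715 UMIs, and by 94 of 1004 in PBS, 9.36%, at a median of 2003, a ratio of 0.621 (0.402 to 0.937). At least 2 strict mitosis genes were seen in 3 AEVs and 18 PBS nuclei, 0.545% in AEVs and 1.79% in PBS, a ratio of 0.304 whose interval, 0.0574 to 1.04, includes 1. Detection of 10 or more genes was seen in 0 of 550 AEVs nuclei, which allows a share of up to 0.545%, and in 11 PBS nuclei. After thinning, the strict count was 0 of 412 in AEVs, which allows up to 0.728%, and 10 of 737 in PBS, 1.36%.

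At least 20 UMIs in this class were counted for 26 of the 40 genes. Of these 20 were lower in AEVs (23 under TMM scaling, which moved Pola1, Tyms and Wee1 below 0), where 42.5% of 12351 measured genes were. By 2-fold or more 15 were lower, where 4.33% of measured genes were. The median log2 ratio was -1.22 against 0.08 for all. Over the 9 genes with at least 50 UMIs the median was -0.50. All 9 measured strict mitosis genes were lower, 8 by 2-fold or more, with a median of -1.95, while of 8 measured replication genes 4 were lower, 3 of them by 2-fold or more, and 4 higher, with a median of -0.11. Under TMM scaling 6 of these 8 were lower. A gene was measured by its UMIs over both libraries, and for the 9 strict mitosis genes most were from PBS. The strict mitosis genes under that limit, Bub1, Bub1b, Kif4, Aspm, Tpx2, Ncapg, Cdk1, Ccna2 and Ccnb1, also had lower levels in AEVs. Their counts were small.

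Top2a had 0 UMIs in the AEVs fibroblast-like nuclei and 58 UMIs in 21 PBS ones, at least 9.74-fold lower against a floor of 3 counts. Cenpf had 0 in AEVs and 47 in PBS, at least 7.89-fold lower, Kif11 0 in AEVs and 23 in PBS, and Cdk1 0 in AEVs and 16 in PBS. Knl1 had 1 in AEVs and 34 in PBS, a ratio of 0.0584 (0.00144 to 0.348). None of the AEVs nuclei of this class held Top2a or Cenpf.

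Diaph3 had 11 UMIs in the AEVs fibroblast-like nuclei and 119 in the PBS ones, -2.45 (-3.49 to -1.56), and Atad2 14 in AEVs and 98 in PBS, -1.82 (-2.74 to -1.004). Smc4 had 91 in AEVs and 289 in PBS, -0.68 (-1.04 to -0.33). Near 0 were Pola1, with 77 UMIs in AEVs and 152 in PBS and a log2 ratio of 0.01 (-0.41 to 0.41), and Wee1, with 33 in AEVs and 65 in PBS and a log2 ratio of 0.01 (-0.64 to 0.64). Brca2 was higher, with 17 UMIs in AEVs and 16 in PBS and a log2 ratio of 1.08 (0.003 to 2.16), and Mcm4, with 13 in AEVs and 11 in PBS and a log2 ratio of 1.23, had an interval that includes 0. Cdkn1a was higher here too, with 177 UMIs in AEVs and 129 in PBS and a log2 ratio of 1.45.

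Markers of the fibroblast-like class had 9423 CPM in AEVs and 11158 in PBS, with 5 of 10 on either side. Macrophage markers in it stood at 244 CPM in AEVs and 575 in PBS, with 4 of 7 measured lower, and dendritic cell markers at 49.3 in AEVs and 213 in PBS, with 3 of 4 measured lower. T or NK cell markers stood at 9.69 CPM in AEVs and 50.5 in PBS, with 3 of 3 measured lower and 4 of 10 at 0 in AEVs and 0 in PBS. Oligodendrocyte markers were lower for 11 of 12, with 2364 CPM in AEVs and 3142 in PBS. Mural markers were higher, with 789 CPM in AEVs and 415 in PBS and 5 of 7 measured higher, and astrocyte markers summed to 3104 CPM in AEVs and 2131 in PBS, with 5 of 10 on either side. Of 10 macrophage markers 1 was at 0 in AEVs and 2 in PBS. Their part in the result was not tested.

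Microglia-like and phagocyte-like nuclei were joined for counting, since the border between the 2 classes moved between clusterings, a choice made after the data were seen. Microglia are the resident macrophages of the cord, and the phagocyte-like nuclei carry genes of lipid uptake. The joined class held 1451 microglia-like and 589 phagocyte-like nuclei in AEVs and 1176 microglia-like and 837 phagocyte-like nuclei in PBS. The rule was met by 60 of 2040 nuclei in AEVs, 2.94%, at a median of 1561 UMIs, and by 112 of 2013 in PBS, 5.56%, at a median of 1760, a ratio of 0.529 (0.380 to 0.7297). At least 2 strict mitosis genes were seen in 10 AEVs and 26 PBS nuclei, a ratio of 0.380 (0.163 to 0.813). After thinning that ratio was 0.462, from 7 nuclei in AEVs and 15 in PBS, with an interval of 0.159 to 1.205 that includes 1. In microglia-like nuclei alone, 3 of 1451 in AEVs and 12 of 1176 in PBS had 2 or more strict mitosis genes, a ratio of 0.203 (0.0367 to 0.751). In phagocyte-like nuclei alone, 7 of 589 in AEVs and 14 of 837 in PBS had them, a ratio of 0.711 whose interval, 0.243 to 1.88, includes 1. The 7 strict mitosis genes measured in microglia-like nuclei had a median log2 ratio of -1.125 with all 7 lower, and the 6 measured in phagocyte-like nuclei one of -0.013 with 3 lower. With doublet calls kept and all nuclei clustered anew, the sizes of the 2 classes changed and their order turned round. The strict ratio was then 0.654 (0.130 to 3.04) in microglia-like nuclei, from 4 of 1191 AEVs and 5 of 973 PBS nuclei. In phagocyte-like nuclei it was 0.435 (0.187 to 0.932), from 10 of 1116 AEVs and 26 of 1262 PBS nuclei. The difference between the 2 classes was not tested.

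In the joined class 31 of the 40 genes were measured. Of these 23 were lower in AEVs (25 under TMM scaling, with Cenpe and Tpx2 then below 0), where 44.2% of 12829 measured genes were. By 2-fold or more 9 were lower, where 3.41% of measured genes were. The median was -0.43 against 0.06 for all. Wee1 had the lowest ratio of the measured genes, with 10 UMIs in AEVs and 73 in PBS, -2.70 (-3.82 to -1.74). Top2a had 9 in AEVs and 45 in PBS, -2.15 (-3.37 to -1.10), Diaph3 37 in AEVs and 126 in PBS, -1.60 (-2.17 to -1.06), and Mki67 15 in AEVs and 38 in PBS, -1.17 (-2.14 to -0.28). Pola1, with 286 UMIs in AEVs and 296 in PBS, and Ncapg2, with 137 in AEVs and 149 in PBS, did not stand apart, and Mcm4 was higher, with 29 in AEVs and 15 in PBS and a log2 ratio of 1.12 (0.17 to 2.12). Macrophage markers in these nuclei were lower in AEVs, with 1073 CPM in AEVs and 2006 in PBS, 6 of 6 measured lower and 2 of 10 at 0 in each library. Fibroblast markers were lower for 7 of 7 measured, with 75.0 CPM in AEVs and 185 in PBS. Oligodendrocyte precursor markers were lower for 7 of 9, with 336 CPM in AEVs and 554.5 in PBS, and oligodendrocyte markers for 11 of 12, with 1084 CPM in AEVs and 1561 in PBS. Their part in the result was not tested.

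Cluster 4 held nuclei with strict mitosis genes in both libraries. It stayed unnamed because another class had more markers among its leading genes, which included Igkc, F13a1, Cd74, H2-Aa and Mrc1. The rule was met by 13 of 116 nuclei in AEVs, 11.2%, at a median of 1446 UMIs, and by 23 of 163 in PBS, 14.1%, at a median of 1408. At least 2 strict mitosis genes were seen in 9 of them in AEVs, 7.76%, and in 15 in PBS, 9.20%, a ratio of 0.843 with an interval of 0.325 to 2.06. After thinning they were seen in 4 of 81 in AEVs and 10 of 115 in PBS, a ratio of 0.568 (0.130 to 1.97).

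In this cluster Top2a had 24 UMIs in AEVs and 30 in PBS, or 118 CPM in AEVs and 114 CPM in PBS. Mki67 had 41 UMIs in 7 of 116 AEVs nuclei and 29 UMIs in 11 of 163 PBS nuclei, 0.87 (0.15 to 1.61). Cenpf had 19 in AEVs and 5 in PBS, 2.30 (0.83 to 4.07), and Diaph3 39 in AEVs and 23 in PBS, 1.13 (0.35 to 1.94). Several UMIs can come from 1 nucleus, and spread between nuclei is not in these intervals. The share of nuclei with 2 or more strict mitosis genes was not higher in AEVs. Brip1 had 2 in AEVs and 20 in PBS, a ratio of 0.129 (0.0147 to 0.532). Other markers of the cluster differed between the libraries. Dendritic cell markers summed to 4077.5 CPM in AEVs and 11045 in PBS, and macrophage markers to 12822 in AEVs and 10266 in PBS. Erythroid markers summed to 15971 CPM in AEVs and 608 in PBS, and B cell markers, Igkc among them, to 673 in AEVs and 10027 in PBS. Their part in these values was not tested.

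Of the smaller classes, ependymal-like nuclei, which line the central canal, had strict mitosis genes in 3 of 116 nuclei in AEVs and 9 of 113 in PBS, and after thinning in 0 of 113 in AEVs, which allows up to 2.65%, and 0 of 111 in PBS, which allows up to 2.70%. T or NK cell-like nuclei had them in 2 of 30 in AEVs and 4 of 139 in PBS.

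Neuron-like nuclei, of a type that does not divide, had the members on both sides. Of 36 measured genes 25 were higher in AEVs (22 under TMM scaling, with Incenp, Mki67 and Smc4 then below 0), 3 by 2-fold or more, where 3.91% of 19421 measured genes were. The share on the higher side was 69.4% of the members and 61.3% of all measured genes. Of the strict mitosis genes 13 of 14 measured were higher (12 under TMM scaling), with a median log2 ratio of 0.45 against 0.10 for all measured genes. Of the 12 replication genes 6 were higher, with a median of 0.07. The 3 members higher by 2-fold or more were Bub1b, with 259 UMIs in 233 AEVs nuclei and 64 UMIs in 54 PBS nuclei, 2.11 (1.71 to 2.53), Aspm, with 39 UMIs in AEVs and 16 in PBS, 1.38 (0.51 to 2.32), and Pole, with 301 in AEVs and 157 in PBS, 1.04 (0.75 to 1.32). Mcm4 had 384 UMIs in AEVs and 223 in PBS, 0.88 (0.64 to 1.13). Top2a had 5 UMIs in AEVs and 11 in PBS, and Mki67 20 in AEVs and 21 in PBS, with intervals that include 0.

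In the oligodendrocyte-like class the members also lay on both sides. Of 30 measured genes 23 were higher in AEVs (20 under TMM scaling, with Kif11, Ncapg2 and Tyms then below 0), 3 by 2-fold or more, where 6.51% of 14626 measured genes were. The share on the higher side was 76.7% of the members and 62.9% of all measured genes. These were Bub1b, with 20 UMIs in AEVs and 3 in PBS, a ratio of 6.52 (1.93 to 34.2), Pole, with 97 in AEVs and 25 in PBS, 1.92 on the log2 scale, and Wee1, with 22 in AEVs and 10 in PBS, 1.11 (-0.03 to 2.35). Mcm4 had 153 in AEVs and 81 in PBS, 0.89. Anln had 10731 UMIs in AEVs and 7875 in PBS, or 872 CPM in AEVs and 654 CPM in PBS, 0.41. Mki67 was lower, with 7 UMIs in AEVs and 22 in PBS and a log2 ratio of -1.69.

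The libraries held 81875882 UMIs in 17055 barcodes for AEVs and 82953601 in 15325 for PBS. Nuclei called as doublets had been taken out, and those calls fell more often on nuclei with many of the 40 genes: 27.3% of AEVs nuclei with 2 or more strict mitosis genes, 62 of 227, and 14.7% of such PBS nuclei, 37 of 252, against 8.26% of all nuclei in AEVs and 5.21% in PBS. With the called nuclei kept, strict mitosis genes were seen in 5 of 466 AEVs and 54 of 523 PBS precursor-like nuclei. Without the nuclei whose barcodes were in both libraries, the precursor-like counts were 3 of 380 in AEVs and 48 of 436 in PBS.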

How the data were processed

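The labels' protocols state that nuclei were taken from frozen injured cord, pooled from 3 mice per library, and made into libraries with the SeekOne DD 3' kit. The deposited values were raw counts of UMIs per gene and nucleus; the submitters' processing notes name build mm10 and Seurat, and which aligner was used, and whether introns and strand were counted, is not given in the sources used here. Nothing in the labels gives separate libraries per mouse, so each group was 1 library, with 81875882 UMIs in AEVs and 82953601 in PBS.

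Nuclei with at least 300 genes, 500 UMIs and under 5% mitochondrial UMIs were kept, and Scrublet doublet calls were removed (1400 of 16949 in AEVs, 771 of 14794 in PBS), which left 15549 and 14023 nuclei. Both libraries were clustered together with scanpy 1.11.5 on 2798 variable genes without cell cycle genes, with 30 principal components, 20 neighbours and Leiden resolution 1, without integration of the libraries. Clusters were named from marker lists, by markers raised at least 2-fold and by their 10 leading genes. A cluster under 0.5 of the median depth in both libraries with no class marker among those 10 stayed unnamed, a rule chosen after the clusters were seen. The members, lists and markers were chosen with earlier results of these data known.

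For each class, the UMIs of a gene were added up within each library and set over all UMIs of the class there. Ratios have exact conditional binomial, levels exact Poisson and shares exact Clopper-Pearson intervals at 95%. Genes with at least 20 UMIs over both libraries count as measured in a class. A level of 0 was given a floor of 3 counts. Each nucleus was thinned once to 1000 UMIs, and shallower nuclei were left out there. The scripts for ratios were checked on simulated data. TMM factors came from edgeR 4.0.16 (the authors' deposited counts as input), with no test. All 40 genes could be named; of each other list the 2 highest and the 2 lowest ratios in the precursor-like class, and Cdkn1a, Cdkn1b, Ccnd1, Ccnd2, Pcna and Foxm1 in any class. Positions came from GENCODE M21, in which 32158 of 32285 gene IDs were found. Motifs were searched in RefSeq promoters of GRCm38.p6, from 250 bases before to 50 after the start.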

Additional observations from a re-analysis of the deposited data

How the results depend on the processing

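No paired analysis was possible because each group was 1 library. Of 111 values from other settings, 64 lay inside the interval of the reported value, 44 outside it and 3 reversed; the cause of the moves was not tested. In this tally, share ratios by other counts of genes, the strict count included, were set against the ratio for 3 or more genes. Of the 64, 3 still moved by over 1.5 times. The strict share ratio with doublet calls kept was 0.654 in microglia-like nuclei. It was set against the reported 0.387 for 3 or more genes, while the strict ratio without called doublets was 0.203. The share ratio clustered with cell cycle genes was 0.538 in phagocyte-like nuclei (reported 0.815), with an interval of 0.372 to 0.767 that leaves out 1. The median log2 ratio over the 9 genes with at least 50 UMIs was -0.50 in fibroblast-like nuclei (reported -1.22). Given first is the share ratio of AEVs over PBS with 3 or more genes. Over all nuclei (0.982) it was 0.726 at 5 or more genes, 0.336 at 10 or more, 0.797 thinned, 0.692 with 2 or more strict mitosis genes and 0.354 with those and neuron-like nuclei left out. In precursor-like nuclei (0.5002) it was 0.709 at 2 or more genes, 0.0796 at 5 or more, 0.0310 at 10 or more, 0.0716 strict, 0.0764 thinned and 0.104 strict with doublet calls kept. In microglia-like nuclei (0.387) it was 0.947 when clustered with cell cycle genes and turned round to 1.15 with doublet calls kept; it was 0.810 at 2 or more genes, 0.0579 at 5 or more and 0.203 strict. In phagocyte-like nuclei (0.815) it was 0.510 under a stricter nucleus filter, 0.474 at 5 or more and at 10 or more genes, 0.470 thinned and 0.435 strict with doublet calls kept. For both joined (0.529) it was 0.737 with doublet calls kept, 0.803, 0.204 and 0.123 at 2, 5 and 10 or more genes, 0.380 strict and 0.341 thinned. In fibroblast-like nuclei (0.621) it was 0.304 strict, 0.239 thinned and 0.372 strict with doublet calls kept. The ratio of summed UMIs in precursor-like nuclei (0.366) was 0.316 at resolution 2, 0.426 with doublet calls kept, 0.190 for strict mitosis genes and 0.331 as a mean over nuclei, and the median log2 ratio (-1.91) was -1.19 thinned. In microglia-like nuclei the UMI ratio (0.697) was 0.968 clustered with cell cycle genes, 0.633 under the stricter filter, 0.769 thinned, 0.357 for strict mitosis genes, 0.808 as a mean and, turned round, 1.03 with doublet calls kept; the median (-0.62) was -0.014 with cell cycle genes and 0.079, turned round, with doublet calls kept. In fibroblast-like nuclei the UMI ratio (0.563) was 0.165 for strict mitosis genes and 0.664 as a mean, and for the joined class (0.749) 0.858 with doublet calls kept and 0.537 for strict mitosis genes.

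The settings with 10 or more genes, without neuron-like nuclei, with doublet calls kept for strict genes and without shared barcodes, and the fibroblast-like and joined classes, were added after the data were seen. TMM scaling shifted log2 ratios by -0.131 in oligodendrocyte-like, -0.105 in fibroblast-like and -0.221 in T or NK cell-like nuclei and by less than 0.1 in the other classes of the report. With 1 pool per group, no value separates treatment from differences between pools. Counts of 0 to 3 nuclei per class set the limit of what was detectable at this depth.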

Other observations

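Some classes outside the comparisons of the report also gave sums for the mitosis and replication genes. In astrocyte-like nuclei the 18 strict mitosis genes summed to 99 UMIs in AEVs and 127 in PBS, a ratio of levels of 0.746 (0.568 to 0.978), while the 12 DNA replication genes summed to 452 in AEVs and 337 in PBS, a ratio of 1.28 (1.11 to 1.48). At least 2 strict mitosis genes were seen in 9 of 898 AEVs and 10 of 749 PBS astrocyte-like nuclei. In Schwann-like nuclei the mitosis genes summed to 16 UMIs in AEVs and 37 in PBS, a ratio of 0.452 (0.235 to 0.833). In T or NK cell-like nuclei they summed to 21 UMIs from 30 nuclei in AEVs and 29 UMIs from 139 nuclei in PBS, a ratio of 2.44 (1.32 to 4.44).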
